A study of Homo sapiens with 10 samples.

Results

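The Mediator complex genes are described here across 10 RNA-seq libraries of A549 cells, an established line of human lung adenocarcinoma. They were chosen by gene symbol, as MED1, MED4, MED6 to MED31, the paralogs MED12L and MED13L, and the kinase module genes CDK8, CDK19 and CCNC, which gives 33 genes. Of these, 31 had at least 1 listed intron, against 10967 genes of the whole series, and they held 390 of the 121778 introns and 815 of the 268272 exons that were given to 1 gene. The study compared 5 conditions with 2 libraries each. Cells received α-amanitin at 1 or 2 µg/mL for 24 h, DRB at 10 or 25 µg/mL, or DMSO, which serves as control here. No label says that DMSO was the solvent of either drug, and the paper's methods speak of an untreated control for α-amanitin. For DRB and DMSO the duration is not given in the sources read here. α-Amanitin, a peptide toxin of death cap mushrooms, slows RNA polymerase II by binding to it, and DRB, a nucleoside analog, blocks kinases such as CDK9 by which the paused polymerase is released. All groups share the line, the medium with fetal bovine serum and the selection of poly(A) RNA, and no label says that replicates came from separate cultures, so that p-values are relative to the scatter of these libraries alone.

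Mediator is a large complex that carries signals from DNA-bound transcription factors to RNA polymerase II at promoters. Its head and middle modules contact the polymerase, its tail module contacts activators, and the MED14 subunit runs through all of them as a scaffold. A separable kinase module, with CDK8 or its paralog CDK19, cyclin C, MED12 and MED13 or their paralogs, binds the core reversibly and hinders the polymerase from binding while it is there. Both drugs act on the polymerase that Mediator serves, and the comparisons ask how far the transcripts of Mediator's own genes differed under them, in amount and in splicing.

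The measurement was the number of split reads, that is, reads that span a splice junction, over each intron. They came to between 2899344 and 6498515 per library. A library lists an intron only from 11 reads upwards, counting split reads, unspliced reads and further reads at its splice sites. A gene with no listed intron may thus hold up to 10 reads per intron, and it is called listed at 0 here rather than silent. Folds given below as at least a value assume that features go unlisted only for lack of reads. The paper's methods also filtered split reads by entropy of their offsets, annotation and splice site bases. Of exons with 50 or more including reads in 1 library at 25 µg/mL DRB, 0.0881% and 0.162% were unlisted in the other. Both libraries at 25 µg/mL DRB stand apart, with 45513 and 60620 introns listed, against 74739 to 90955 in all others, and with scaling factors of the trimmed mean of M-values (TMM) of 0.782 and 0.682, against 1.03 to 1.15. In every group the 2 replicates differed by more than sampling noise (chi-squared over its degrees of freedom 7.07 to 17.2). Of the markers of A549 cells, KRT8 and KRT18 were listed in all 10 libraries, AKR1C1 in 8 and AKR1B10 in 7, while KRT19, EPCAM and CDH1 were at 0 in all 10. Of the 8 markers of leukocytes, endothelium and fibroblasts, 6 were at 0 in all libraries, LYZ had 6 split reads in 1 library, and COL1A1 had 0 to 677.

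The Mediator genes were listed less completely at 25 µg/mL DRB than anywhere else. There, 14 and 20 of the 33 were above 0, against 30 and 29 in DMSO, and the other libraries listed 28 to 31. Of the 406 introns of their canonical transcripts, 71 and 103 were listed at 25 µg/mL DRB, against 216 and 203 in DMSO. Their summed level, in split reads scaled to 1000000 per library with TMM factors (CPM), was 629 and 771 CPM at 25 µg/mL DRB, against 1125 and 1033 in DMSO. The sum was 1327 and 1379 at 10 µg/mL DRB, and over the 4 α-amanitin libraries it ranged between 1107 and 1177. These are bulk libraries, in which fewer cells with a transcript and less of it per cell cannot be told apart. MED7, a middle module subunit, and MED12L were at 0 in all 10 libraries, and MED9 was below the filter on low counts in the α-amanitin fit.

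In DMSO the members differed widely in level per canonical intron, a scale that allows for the number of introns but counts unlisted ones as 0. CCNC, which encodes cyclin C, the partner of CDK8 and CDK19, came first with 14.4 ± 1.73 CPM per intron (SD, n = 2). MED10 followed with 8.13 ± 0.0844 and MED8 with 7.74 ± 0.0353, both above MED28 with 7.20 ± 0.820, from which MED8 differs by less than the SD of MED28. At the low end of those listed were CDK19 with 0.757 ± 0.114, MED12 with 0.595 ± 0.274 and MED23 with 0.434 ± 0.101, and these neighbours also overlap. In the DMSO libraries, 4 and 3 of 12 canonical introns were listed for CDK19, 12 and 7 of 44 for MED12 and 5 and 4 of 28 for MED23. The unlisted introns may hold reads below the listing minimum, so the order at the low end stays undecided. MED26 was at 0 in both DMSO libraries.

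At 25 µg/mL DRB, 21 of the 31 Mediator genes tested passed an adjusted p of 0.05 against DMSO, with 2 higher and 19 lower (limma voom, Benjamini-Hochberg adjustment over 9530 genes). Of all genes tested, 61.2% passed, with 20.1% higher and 41.0% lower, so the members' share of lower calls stands beside a high background. The median log2 fold change was −3.49 over the members and −1.0 over all genes. Where genes at 0 in one group are set to the bound that the listing minimum allows, these medians become −0.40 and 0.0. By total split reads in place of TMM, 2 members rose and 22 fell, while 1361 genes rose and 4924 fell, against 1919 and 3909 with TMM, and the median of all genes was at −1.49. All values below are on the TMM scale unless stated.

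The 2 members that rose were a tail and a middle subunit. MED15 (ENSG00000099917.17, chr22:20850200-20941919, plus strand), a tail subunit that binds activators such as the SREBP factors of lipid synthesis, had 257 and 212 CPM at 25 µg/mL DRB, against 58.9 and 47.5 in DMSO. Its log2 fold change was 2.11 ± 0.21 (SE, adjusted p = 0.000829 in limma voom), and the same direction held in all 15 alternatives, in each of which it stayed past the threshold. The plot of split reads in every library shows MED15 in between at the lower dose, with 134 and 111 at 10 µg/mL DRB. MED15 has 8 named copies in the annotation, and how many of its reads also match a copy was not measured. MED26 (ENSG00000105085.11, chr19:16685718-16739873, minus strand), the middle subunit that docks the elongation factors of the super elongation complex, had 29.9 and 34.1 CPM at 25 µg/mL DRB, against 0 and 0 in DMSO. Both of its introns were listed at that dose, with 37 and 72 split reads in the one nearer the end of the gene and 30 and 47 in the other. MED26 had 0 split reads in 1 library at 10 µg/mL DRB and 14 in the other, so it passed the filter on low counts only through the libraries at 25 µg/mL, and its call is a description without a test. At the listing minimum of its 3 exons MED26 was at least 8.73-fold higher there.

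**Figure D1:**
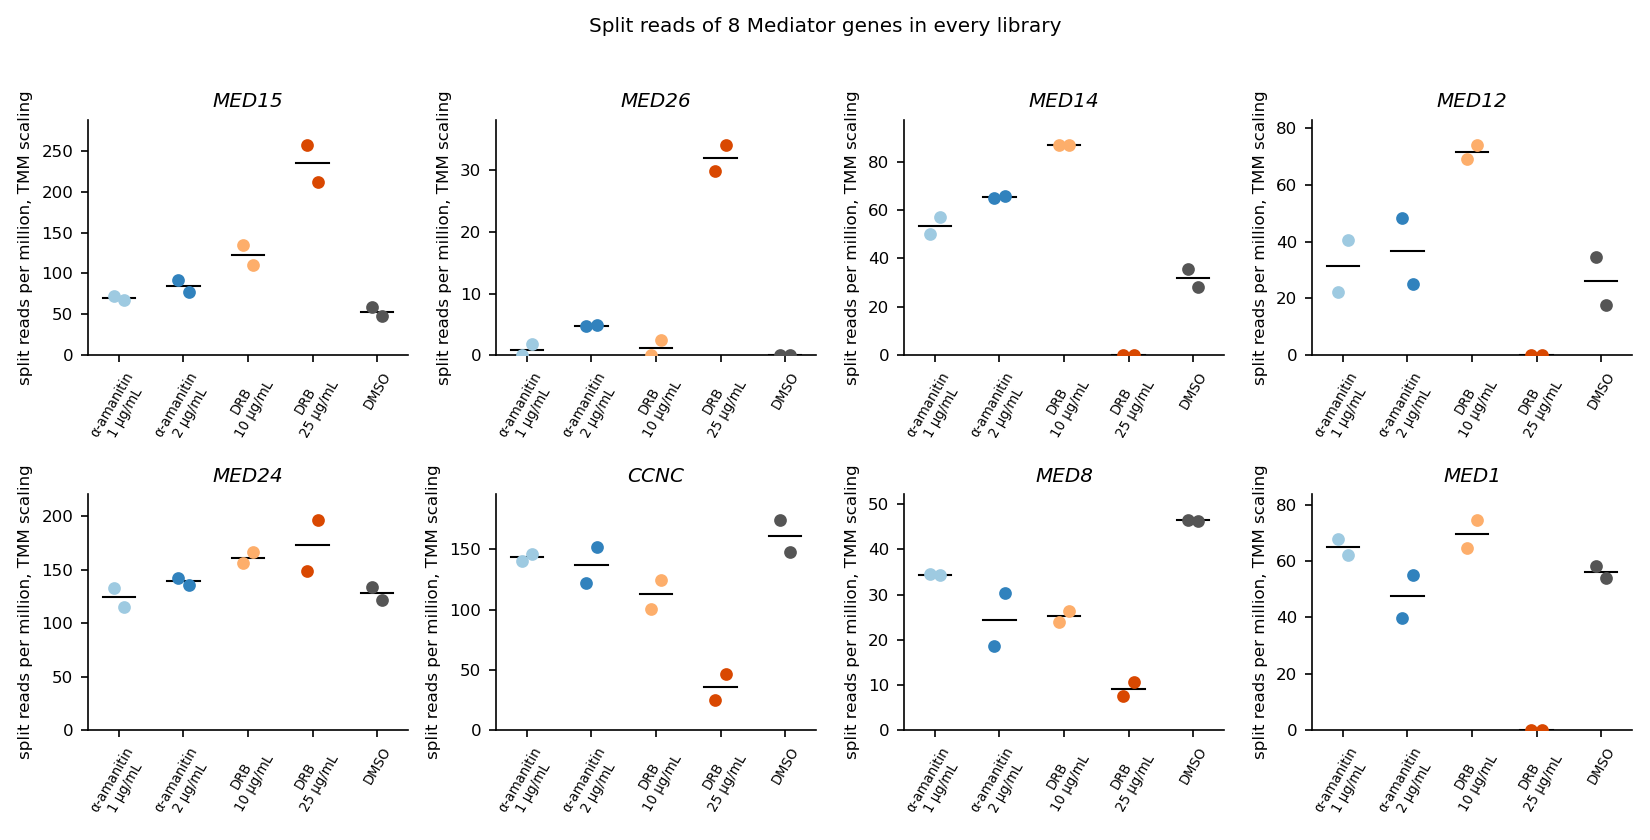
Split reads in CPM, TMM scaling, of 8 Mediator genes in every library, with each point a library and the line the mean of 2, for both α-amanitin doses, both DRB doses and DMSO. At 25 µg/mL DRB, MED15 sits at 257 and 212 and MED26 at 29.9 and 34.1, while MED14, MED12 and MED1 are listed at 0 in both libraries.

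Every tested gene of the CDK8 kinase module was called lower at 25 µg/mL DRB, 6 of 6, with a median fitted log2 fold change of −5.37, or −0.57 with the genes at 0 set to their bound. This stands beside 41.0% of all genes called lower. CCNC (ENSG00000112237.13, chr6:99990263-100016701, minus strand) had 24.5 and 46.7 CPM at 25 µg/mL DRB, against 175 and 148 in DMSO. Its log2 fold change was −2.14 ± 0.36 (adjusted p = 0.00445 in limma voom), it was called in all 15 alternatives, and it was at least 2.68-fold lower when every unlisted exon is given 10 reads. MED13, which ties the kinase module to the core, had 21.9 and 47.0 at 25 µg/mL DRB, against 80.9 and 72.3 in DMSO, a log2 fold change of −1.13 ± 0.36 (adjusted p = 0.0386 in limma voom), called in 6 of 11 alternative settings and in 2 of 4 fits that leave out a library. Its paralog MED13L had 0 and 4.01 at 25 µg/mL DRB, against 41.8 and 27.6 in DMSO (adjusted p = 0.0128 in limma voom). MED12, which activates CDK8, was at 0 in both libraries at 25 µg/mL DRB, against 34.7 and 17.7 in DMSO. CDK8 was likewise at 0 in both, against 16.7 and 16.7 in DMSO. CDK19 was at 0 in both, against 11 and 8.73 in DMSO. The adjusted p was 0.00144 for MED12, 0.000939 for CDK8 and 0.00109 for CDK19 (limma voom). The listing minimum leaves MED12, CDK8, CDK19, MED13 and MED13L undecided: with 10 reads in every unlisted exon, their levels at 25 µg/mL DRB could reach those of DMSO. MED13L shows this directly, since its second library at that dose held 312 inclusion reads over 22 listed exons, against 476 inclusion reads in the lower DMSO library, with only 14 split reads in listed introns.

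Of the head module, which sits on the polymerase, 6 of 7 members were called lower, beside 41.0% of all genes. The median was −4.31, or −1.27 with genes at 0 set to their bound. MED8, which in budding yeast anchors a movable jaw of the head, had 7.59 and 10.6 CPM at 25 µg/mL DRB, against 46.6 and 46.3 in DMSO. Its log2 fold change was −2.36 ± 0.33 (adjusted p = 0.00219 in limma voom), the call stood in all 15 alternatives, and MED8 was at least 1.75-fold lower at the listing minimum. MED17, the core of the head, had 10.7 and 8.31 at 25 µg/mL DRB, against 22.4 and 22.9 in DMSO, a log2 fold change of −1.27 ± 0.37 (adjusted p = 0.0275 in limma voom). The call of MED17 stood in 7 of 10 alternative settings and in 1 of 4 fits that leave out a library, and the listing minimum leaves MED17 undecided. MED6 had 0 and 4.30 against 42.3 and 43.1 in DMSO and was at least 2.14-fold lower. MED20, part of the yeast jaw with MED8 and MED18, had 0 and 2.01 against 12.8 and 17.5 in DMSO and was at least 2.05-fold lower. MED11 was at 0 in both libraries, against 8.91 and 12 in DMSO, and was at least 1.07-fold lower. MED22, its partner in the head, was at 0 in both, against 2.51 and 7.11 in DMSO, but had 19 and 26 inclusion reads in listed exons, against 32 and 70 in DMSO, and stays undecided at the minimum. The adjusted p of these 4 was 0.00901 for MED6, 0.0136 for MED20, 0.00116 for MED11 and 0.00744 for MED22 (limma voom). The exception was MED18, with 5.35 and 3.44 against 3.65 and 7.31 in DMSO, where the groups overlap (adjusted p = 0.659 in limma voom).

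The scaffold MED14 (ENSG00000180182.11, chrX:40507557-40595110, minus strand) was at 0 in both libraries at 25 µg/mL DRB, against 35.6 and 28.2 in DMSO, and none of its 31 canonical exons was listed there, against 25 and 24 in DMSO. It was called lower (adjusted p = 0.000606 in limma voom), but with 31 exons that could each hold 10 reads, the minimum leaves MED14 undecided. The middle module was mixed, with 1 member higher and 3 lower of 8 tested, beside 20.1% of all genes higher and 41.0% lower. MED1, through which nuclear receptors reach Mediator, was at 0 in both libraries at 25 µg/mL DRB, against 58.2 and 53.8 in DMSO, at least 1.43-fold lower. MED4 had 0 and 5.16 against 37.5 and 38.6 in DMSO, at least 1.99-fold lower. MED21, which pairs with MED7 in the hinge of the middle module, was at 0 in both, against 18 and 22.7 in DMSO, at least 1.77-fold lower. The adjusted p was 0.000557 for MED1, 0.012 for MED4 and 0.000642 for MED21 (limma voom). The small middle subunits MED10 and MED31 did not pass the test: MED10 had 17.0 and 20.1 against 24.2 and 24.6 in DMSO, and MED31 had 11.6 and 15.2 against 7.08 and 9.54 in DMSO. MED19 had 0 and 8.88 against 19.2 and 18.5 in DMSO and was not called either (adjusted p = 0.0696 in limma voom), although it was at least 1.08-fold lower at the minimum. MED9 had 8.03 and 5.73 against 2.51 and 0 in DMSO (adjusted p = 0.106 in limma voom).

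The tail, which receives activators, was mixed as well, with MED15 higher and MED16 and MED23 lower of 5, beside the same 20.1% and 41.0% of all genes. MED16 was at 0 in both libraries at 25 µg/mL DRB, against 66.7 and 52.0 in DMSO, at least 1.58-fold lower (adjusted p = 0.000593 in limma voom). MED23, a target of the adenoviral E1A protein and of ELK1, had 0 and 4.01 against 14.2 and 10.2 in DMSO, and its adjusted p of 0.0498 (limma voom) held in 4 of 10 alternative settings and in none of the 4 fits that leave out a library. MED24 had 149 and 197 at 25 µg/mL DRB, against 134 and 121 in DMSO, a log2 fold change of 0.44 ± 0.17 that missed the threshold (adjusted p = 0.0652 in limma voom) and turned to −0.05 by total split reads. MED25, bound by the viral activator VP16, had 52.2 and 115 against 90.9 and 82.4 in DMSO, with overlapping groups. Among the subunits between head and tail, MED27 was at 0 in both libraries, against 18.3 and 26.2 in DMSO (adjusted p = 0.000879 in limma voom), but stays undecided at the minimum. MED28 had 14.7 and 15.8 against 19.9 and 23.4, MED29 had 19.2 and 12.3 against 18.7 and 21.1, and MED30 was at 0 in both against 2.51 and 6.50 in DMSO, none of them called. MED28 too has 8 named copies, CDK8 has 2, and MED6, MED13 and MED14 have 1 each, and here as well the reads shared with them were not measured.

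**Figure D2:**
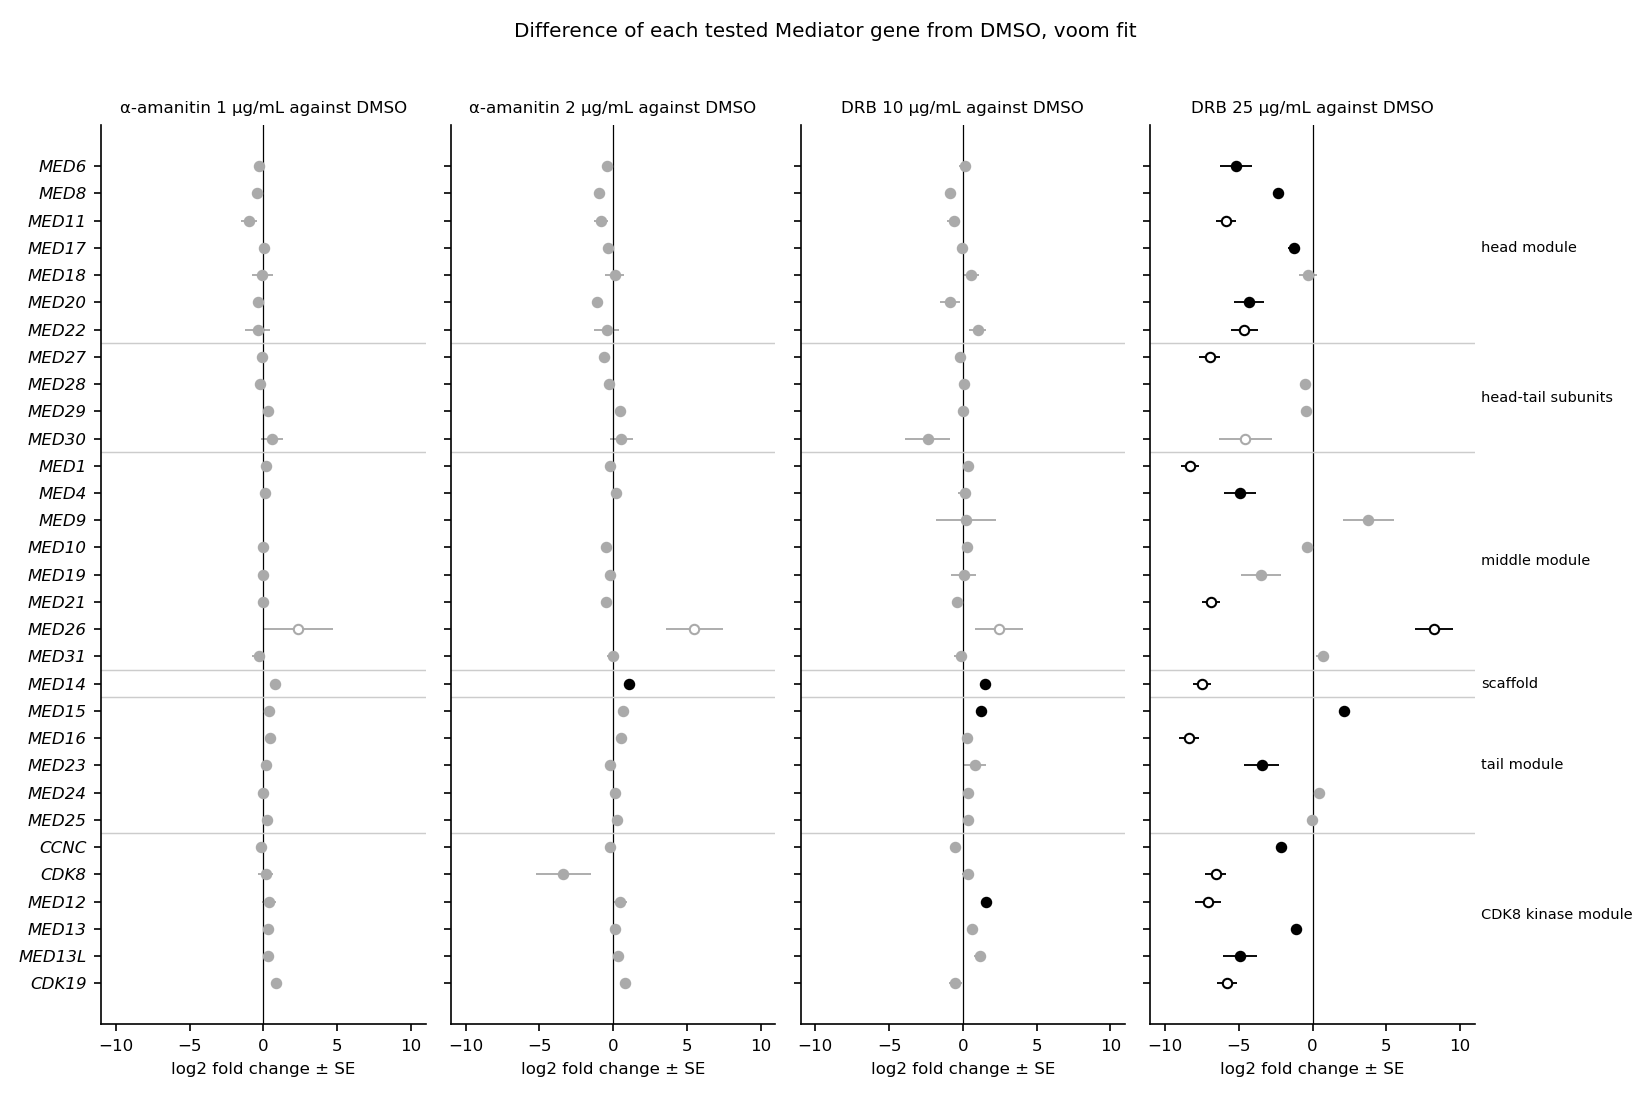
Log2 fold change ± SE of each tested Mediator gene, by module, for both α-amanitin doses and both DRB doses, each against DMSO. Black marks passed an adjusted p of 0.05, grey did not, and open marks are genes at 0 in both libraries of one group, whose fitted fold change is no bound. Of the 4 comparisons, 25 µg/mL DRB has most members past the threshold, 2 higher and 19 lower.

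Because so much of the difference at 25 µg/mL DRB lies in unlisted features, inclusion reads over the canonical exons were also compared under the least favourable case that the listing minimum allows. In it every unlisted exon of the lower group holds 10 reads. In that case 11 members stayed below both DMSO libraries, 3 stayed above both, and 19 were undecided. Of the 19 members called lower, 9 stayed lower, and both members called higher stayed higher. Over all 12412 genes, 23.5% stayed lower and 20.6% stayed higher. By total split reads, 18 members stayed lower and 2 higher, against 35.0% and 13.1% of all genes. Another measure is the sum over introns listed in all 6 DRB and DMSO libraries, which 10 members have. It leaves out every intron that fell under the listing minimum at 25 µg/mL DRB, so it covers only what stayed listed there. The median log2 fold change of all genes was −0.03 on these introns. There MED15 stayed higher, with a log2 fold change of 1.22, and CCNC, MED8, MED10, MED28, MED29 and MED31 were called lower, so that 7 of 10 passed. Of the 4761 genes tested on these introns 61.8% passed, 1449 higher and 1495 lower. MED10, MED28, MED29 and MED31 were not called when all introns counted, and MED31 was then on the higher side.

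**Figure D3:**
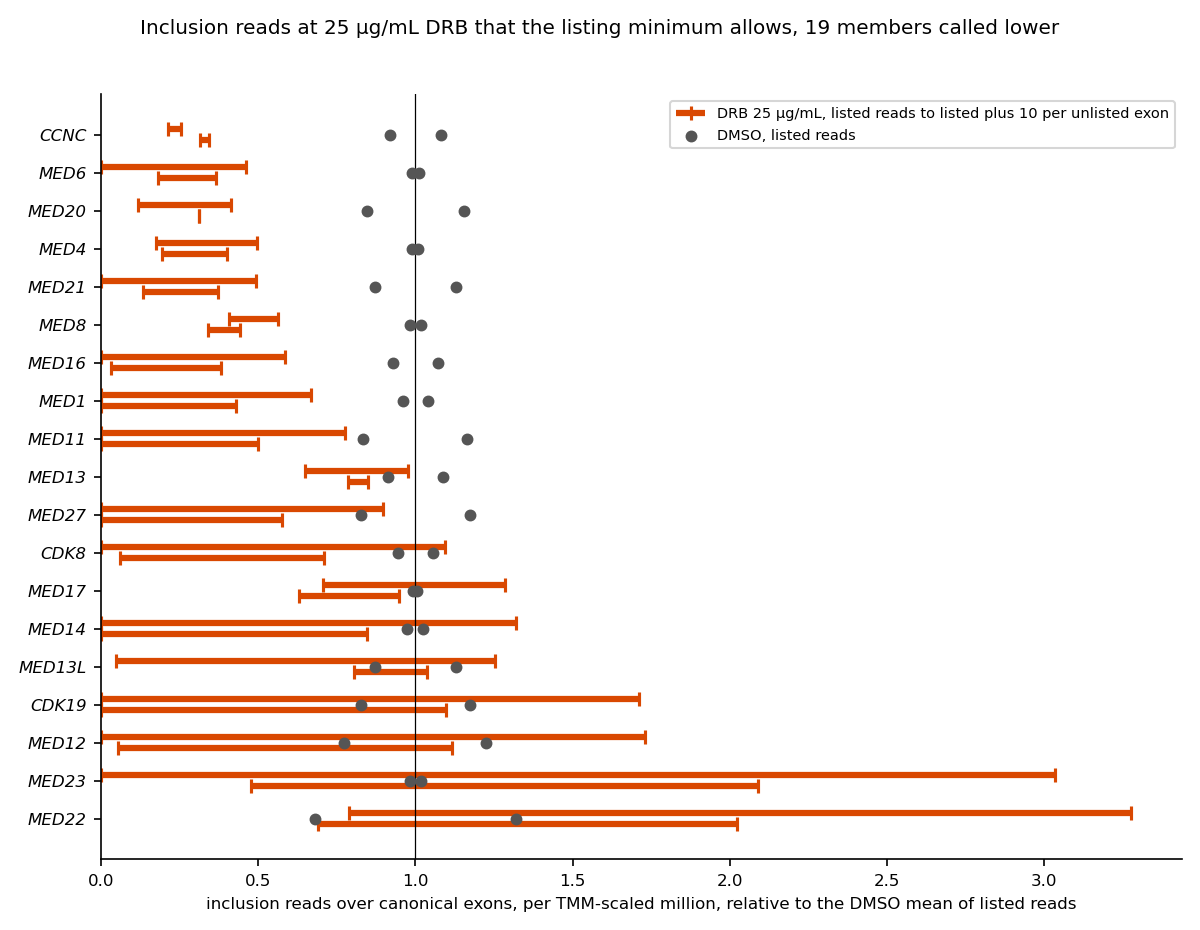
Inclusion reads over canonical exons, scaled by TMM, relative to the mean of both DMSO libraries, for the 19 members called lower at 25 µg/mL DRB. Each bar runs from the listed reads of a library at 25 µg/mL DRB to those reads plus 10 per unlisted exon, and the points are the DMSO libraries. For 9 members, CCNC first with at least 2.68-fold, both bars end below both points.

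Few Mediator genes passed at 10 µg/mL DRB, 3 of 31, all of them higher. Of all genes 14.7% passed, with 8.17% higher and 6.57% lower, and by total split reads 1166 rose and 588 fell, against 779 and 626 with TMM, while the median of all genes moved to 0.17 against 0.03. MED14, the scaffold, had 86.8 and 86.9 CPM at 10 µg/mL DRB, against 35.6 and 28.2 in DMSO, a log2 fold change of 1.47 ± 0.19 (adjusted p = 0.0122 in limma voom). MED12, of the kinase module, had 69.1 and 74.0 against 34.7 and 17.7 in DMSO, a log2 fold change of 1.57 ± 0.31 (adjusted p = 0.0288 in limma voom). MED15 had 134 and 111 against 58.9 and 47.5 in DMSO, a log2 fold change of 1.21 ± 0.22 (adjusted p = 0.0217 in limma voom). In each of the 3 genes both treated libraries lay above both DMSO libraries, and at the listing minimum they were at least 1.57-fold, 1.15-fold and 1.60-fold higher, in the order named. None of these calls survived leaving out any 1 library, at which 0 of 31 members and 0 genes in all were called. The lowest log2 fold changes among well covered members were those of MED20, MED8 and CCNC, at −0.89 ± 0.67, −0.87 ± 0.22 and −0.50 ± 0.18. MED8 had 24.0 and 26.3 against 46.6 and 46.3 in DMSO, which missed the threshold (adjusted p = 0.0532 in limma voom). MED20 had 10.4 and 6.39 against 12.8 and 17.5, and CCNC had 101 and 124 against 175 and 148 in DMSO. In all 3 genes both treated libraries lay below both DMSO libraries, and none was called. The other kinase module genes were not called either: MED13 had 124 and 109 against 80.9 and 72.3, MED13L 75.9 and 75.6 against 41.8 and 27.6, CDK8 16.3 and 25.0 against 16.7 and 16.7, and CDK19 5.89 and 7.81 against 11 and 8.73 in DMSO.

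The direct comparison of the doses, 25 against 10 µg/mL DRB, called 21 of 31 members, 2 higher and 19 lower, against 63.0% of all genes, 19.5% higher and 43.5% lower. By total split reads 1206 genes rose and 5542 fell, against 1860 and 4142 with TMM, and 1 member rose and 24 fell. It shares its libraries with the comparisons above. Of the 5 conditions, MED14 and MED12 had their highest mean level at 10 µg/mL DRB, and were listed at 0 at 25 µg/mL. At the minimum MED14 was at least 1.38-fold lower at 25 than at 10 µg/mL, MED16 at least 1.96-fold and MED1 at least 1.68-fold, while MED12 stays undecided. MED15 was higher at 25 than at 10 µg/mL by 0.90 ± 0.17 on the log2 scale (adjusted p = 0.00632 in limma voom), and MED26 was at least 7.66-fold higher.

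Few Mediator genes passed under α-amanitin. At 1 µg/mL, 0 of 30 members and 0.0% of all 9680 genes passed in limma voom, with 5 members at an unadjusted p under 0.05, and limma-trend called 0 as well. At 2 µg/mL, 1 of 30 members passed, against 6.33% of all genes, 2.44% higher and 3.89% lower, and by total split reads 309 genes rose and 299 fell, against 236 and 377 with TMM. The member called was MED14, with 65.1 and 65.6 CPM at 2 µg/mL, against 35.6 and 28.2 in DMSO, a log2 fold change of 1.06 ± 0.17 (adjusted p = 0.0261 in limma voom). At 1 µg/mL the scaffold gene had 50.0 and 57.0, a log2 fold change of 0.77 ± 0.18 that was not called (adjusted p = 0.470 in limma voom). Leaving out 1 library kept the call of MED14 at 2 µg/mL in 1 of 4 cases. MED14 was thus above both DMSO libraries at both doses of α-amanitin and at 10 µg/mL DRB, and the dose comparison, 2 against 1 µg/mL, called 0 of 30 members and 0.0% of all genes, with 1 member at an unadjusted p under 0.05 in limma voom.

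The members next in line for α-amanitin did not pass. At 2 µg/mL, CDK19 had 18.4 and 15.7 CPM against 11 and 8.73 in DMSO (log2 fold change 0.80 ± 0.34), and at 1 µg/mL it had 15.9 and 19.6 (0.89 ± 0.34). MED15 had 91.8 and 77.1 at 2 µg/mL, against 58.9 and 47.5 in DMSO (0.68 ± 0.16, adjusted p = 0.0578 in limma voom). MED16 had 80.9 and 81.2 at 1 µg/mL, against 66.7 and 52.0 in DMSO (0.47 ± 0.15). These are groups that do not overlap but that missed the threshold over all genes. On the lower side, MED8 had 18.5 and 30.3 at 2 µg/mL, against 46.6 and 46.3 in DMSO (−0.94 ± 0.23, adjusted p = 0.0606 in limma voom), and 34.5 and 34.3 at 1 µg/mL (−0.43 ± 0.21). MED20 had 6.88 and 7.38 at 2 µg/mL, against 12.8 and 17.5 in DMSO (−1.07 ± 0.37), and 11.9 and 11.3 at 1 µg/mL (−0.39 ± 0.30). MED6 had 38.5 and 32.9 at 1 µg/mL, against 42.3 and 43.1 in DMSO (−0.28 ± 0.16). CDK8 had 0 and 22.3 at 2 µg/mL, against 16.7 and 16.7 in DMSO, so that 1 library at 0 sets its log2 fold change of −3.36 ± 1.87. The rest of the kinase module was not called at 2 µg/mL either: CCNC had 122 and 152 against 175 and 148, MED12 48.2 and 25.0 against 34.7 and 17.7, MED13 81.3 and 88.7 against 80.9 and 72.3, and MED13L 42.7 and 40.2 against 41.8 and 27.6 in DMSO. MED26 had 4.76 and 4.87 at 2 µg/mL and 0 and 1.84 at 1 µg/mL, against 0 and 0 in DMSO, and was not called. At the minimum MED26 was at least 1.39-fold higher at 2 µg/mL. It passed the filter on low counts only through the libraries at 2 µg/mL, so these values are a description without a test.

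Genes that work beside Mediator give a frame for these counts, to be read beside the 20.1% of all genes that rose and the 41.0% that fell at 25 µg/mL DRB. At 25 µg/mL DRB, 3 of 12 tested subunits of RNA polymerase II rose and 4 fell, with a median log2 fold change of −0.20. Of 18 general transcription factors, which assemble with Mediator at the promoter, 0 rose and 13 fell, with a median of −2.18, or −1.49 with genes at 0 set to their bound. Of 11 TAF subunits of TFIID, 2 rose and 6 fell, with a median of −4.16, or 0.0 with genes at 0 set to their bound. The list of partners in elongation and looping, which holds factors that Mediator recruits or that hold enhancers to promoters, had 8 higher and 4 lower of 14, with a median of 0.77, or 0.73 with the bound. The same list at 10 µg/mL DRB had 4 higher and 0 lower, with a median of 1.10, or 0.91 with the bound, beside 2 higher and 0 lower general transcription factors, where 8.17% of all genes rose and 6.57% fell. At 2 µg/mL α-amanitin only 1 gene of these 4 lists was called, a subunit of RNA polymerase II, and at 1 µg/mL 0 were called in limma voom.

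Splicing of the Mediator transcripts was measured for single exons by Ψ, the deposited inclusion rate, which is inc/(inc + 2 × exc), where inc counts the reads that join the exon to its neighbours and exc the reads that skip it. Across the canonical exons whose denominator reached 10 in all DRB and DMSO libraries, 103 exons of 17 members, skipping made up 7.46% and 4.36% at 25 µg/mL DRB, against 0.296% and 0.215% in DMSO. Skipping at 10 µg/mL DRB was 0.241% and 0.245%. An exon with few including reads could reach this denominator only with the help of its skipping reads. The MED20 exon of 254 nucleotides entered in this way, with 8 including and 13 skipping reads over both libraries at 25 µg/mL DRB. The filter thus favours skipped exons where a gene is thinly covered, so the members' shares and their distance from all genes are a description without a test. Over all genes, with 41869 exons under the same filter, skipping was 2.91% and 2.31% at 25 µg/mL DRB, against 1.23% and 1.26% in DMSO. The members had 114 and 105 skipping reads at 25 µg/mL DRB, many of them in few genes. Over both libraries, a MED31 exon held 38 and 2 neighbouring MED15 exons held 30 each, in part the same reads. Of the MED20 exons, 1 held 13 and another 10. The members' pooled share is thus weighted towards these genes. Of the 103 exons, 19 and 13 had any skipping reads at 25 µg/mL DRB, against 2 and 1 in DMSO. As shares these are 18.4% and 12.6%, against 1.94% and 0.971% in DMSO. Over all genes the shares were 11.7% and 12.1%, against 4.23% and 4.49% in DMSO, so 1 of the libraries at 25 µg/mL lay near all genes. Across 248 canonical exons of 29 members in the α-amanitin and DMSO libraries, skipping lay between 0.0912% and 0.271% in every library, and over all genes it was 1.39% to 1.48% under α-amanitin, against 1.26% and 1.30% in DMSO.

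For the test of single exons, 23 exons of 7 members could be compared in the DRB fit, and at 25 µg/mL 17 of them in 5 genes passed an adjusted p of 0.05, with 6 higher and 11 lower (quasi-binomial model with limma's moderated spread, over 10875 exons). Of all exons tested, 51.1% passed, with 7.69% higher and 43.4% lower. Skipping had to be seen in at least 10 reads for an exon to be tested, and 16 of the 23 passed that filter only through the libraries at 25 µg/mL DRB, all 11 lower ones and 1 higher one, of MED13, among them. Their number is therefore a description, and their values are given below without a test. Overlapping versions of 1 exon share reads, so that the 17 are fewer independent events. Leaving out any 1 library left 0 of the calls, here and, but for 1 exon, over all genes. Of the 23 member exons, 0 passed at 10 µg/mL DRB, with 0 at an unadjusted p under 0.05, against 0.0276% of all exons. In DMSO and at 10 µg/mL DRB, most of the 16 had no skipping reads and the MED13 exon had no including reads. Those exons could not pass at 10 µg/mL, so their result there is no finding. For α-amanitin 0 of 16 passed at either dose, with 0 at 1 µg/mL and 3 at 2 µg/mL at an unadjusted p under 0.05, against 0.0% and 0.029% of all exons. Limma on log odds also called 0 members in these 3 comparisons. The 3 exons at 2 µg/mL were the CCNC exon of 95 nucleotides described below, with 36 including and 105 skipping reads and 27 and 157 (adjusted p = 0.192, quasi-binomial), and 2 overlapping versions of 1 MED15 exon (adjusted p = 0.165 and 0.186).

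Of the canonical exons skipped at 25 µg/mL DRB, 4 in 3 genes are shown with 20 bases of intron on each side, since their ends are the splice sites at which they were passed over. The exon is in capitals and the intron in lower case, read 5′ to 3′ from GRCh37, the build of the files, and each whole exon is coding sequence in the canonical transcript.
MED31 exon, chr17:6553282-6553418, strand -: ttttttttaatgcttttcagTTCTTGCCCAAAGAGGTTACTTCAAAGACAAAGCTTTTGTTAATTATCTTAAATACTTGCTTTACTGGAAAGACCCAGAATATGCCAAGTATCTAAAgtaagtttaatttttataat
MED15 exon A, chr22:20905703-20905794, strand +: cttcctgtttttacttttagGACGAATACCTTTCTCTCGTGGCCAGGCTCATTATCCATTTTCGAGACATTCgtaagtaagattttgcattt
MED15 exon B, chr22:20907412-20907481, strand +: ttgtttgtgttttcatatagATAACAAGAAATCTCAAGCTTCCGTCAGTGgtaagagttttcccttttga
MED20 exon, chr6:41884503-41884697, strand -: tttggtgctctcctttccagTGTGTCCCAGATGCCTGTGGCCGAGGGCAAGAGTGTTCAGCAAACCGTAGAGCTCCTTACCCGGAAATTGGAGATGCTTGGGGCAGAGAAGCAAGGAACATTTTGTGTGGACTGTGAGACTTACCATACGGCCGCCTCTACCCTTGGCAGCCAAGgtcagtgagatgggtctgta
All 4 are bounded by an AG before and a GT after.

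MED31, one of the most conserved Mediator subunits, skipped in most reads its exon 3 of 4 (97 nucleotides, chr17:6553302-6553398) at 25 µg/mL DRB. The reads were 5 including and 11 skipping in one library and 12 and 27 in the other, against 28 and 3 and 34 and 0 in DMSO. Ψ was 0.184 ± 0.00238 at 25 µg/mL DRB, against 0.912 ± 0.125 in DMSO (SD, n = 2 each). At 10 µg/mL DRB it was 0.825 ± 0.0179, and at 1 and 2 µg/mL α-amanitin 0.815 ± 0.0357 and 0.918 ± 0.115. The junction that skips this exon is annotated, and it had 3 or 4 split reads or was unlisted in every library outside 25 µg/mL DRB, against 11 and 27 there. The exon's length is not a multiple of 3, so its loss shifts the reading frame of MED31.

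MED15 skipped 2 neighbouring exons together. Exon A is exon 3 of 18 (52 nucleotides, chr22:20905723-20905774) and exon B is exon 4 (30 nucleotides, chr22:20907432-20907461). Exon A of MED15 had 33 including and 12 skipping reads in one library at 25 µg/mL DRB and 48 and 18 in the other, against 42 and 0 and 35 and 0 in DMSO. Ψ of exon A was 0.575 ± 0.00532 at 25 µg/mL DRB, against 1.00 and 1.00 in the DMSO libraries. Exon B of MED15 gave 0.585 ± 0.00846, against 1.00 in both DMSO libraries. The junction from chr22:20891491 to chr22:20909223, which leaves out both at once, had 12 and 15 split reads at 25 µg/mL DRB and was unlisted in the other 8 libraries. Both exons together measure 82 nucleotides in MED15, also not a multiple of 3. The overlapping longer versions of these exons gave lower Ψ in the same libraries, as did a further canonical MED15 exon of 111 nucleotides, chr22:20922808-20922918, with 37 including and 13 skipping reads and 46 and 5 at 25 µg/mL DRB, against 35 and 0 and 32 and 0 in DMSO.

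In MED20, exon 2 of 4 (155 nucleotides, chr6:41884523-41884677) had 4 including and 5 skipping reads and 10 and 5 at 25 µg/mL DRB, against 44 and 0 and 64 and 0 in DMSO, a Ψ of 0.393 ± 0.152 against 1.00 in both DMSO libraries. Another coding exon of MED20 (254 nucleotides, chr6:41877007-41877260) had 4 and 5 and 4 and 8 at 25 µg/mL DRB, against 44 and 0 and 70 and 0 in DMSO. MED20 was itself at least 2.05-fold lower at this dose, so its Ψ rests on few reads.

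The 6 higher calls at 25 µg/mL DRB were 3 overlapping versions of a CCNC exon, 1 MED13 exon and 2 overlapping versions of 1 MED15 exon whose values are not reported here. CCNC has an alternative exon of 95 nucleotides outside its canonical transcript (chr6:99992055-99992149), which had 9 including and 6 skipping reads and 19 and 21 at 25 µg/mL DRB, against 13 and 136 and 14 and 124 in DMSO. Its Ψ was 0.370 ± 0.0828 at 25 µg/mL DRB (adjusted p = 0.013, quasi-binomial), with 0.0456 and 0.0534 in the DMSO libraries. Skipping reads of this CCNC exon were thus fewer than in DMSO, as were the split reads of the gene, while including reads were of similar number. MED13 has an alternative exon of 125 nucleotides (chr17:60109710-60109834) with 5 and 4 and 6 and 6 reads at 25 µg/mL DRB, against 0 and 12 and 0 and 20 in DMSO. The CCNC and MED13 exons lie outside the canonical coding sequence. For MED10, the 4 exons tested had skipping reads in only 1 of the 2 libraries at 25 µg/mL DRB and were not called.

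**Figure D4:**
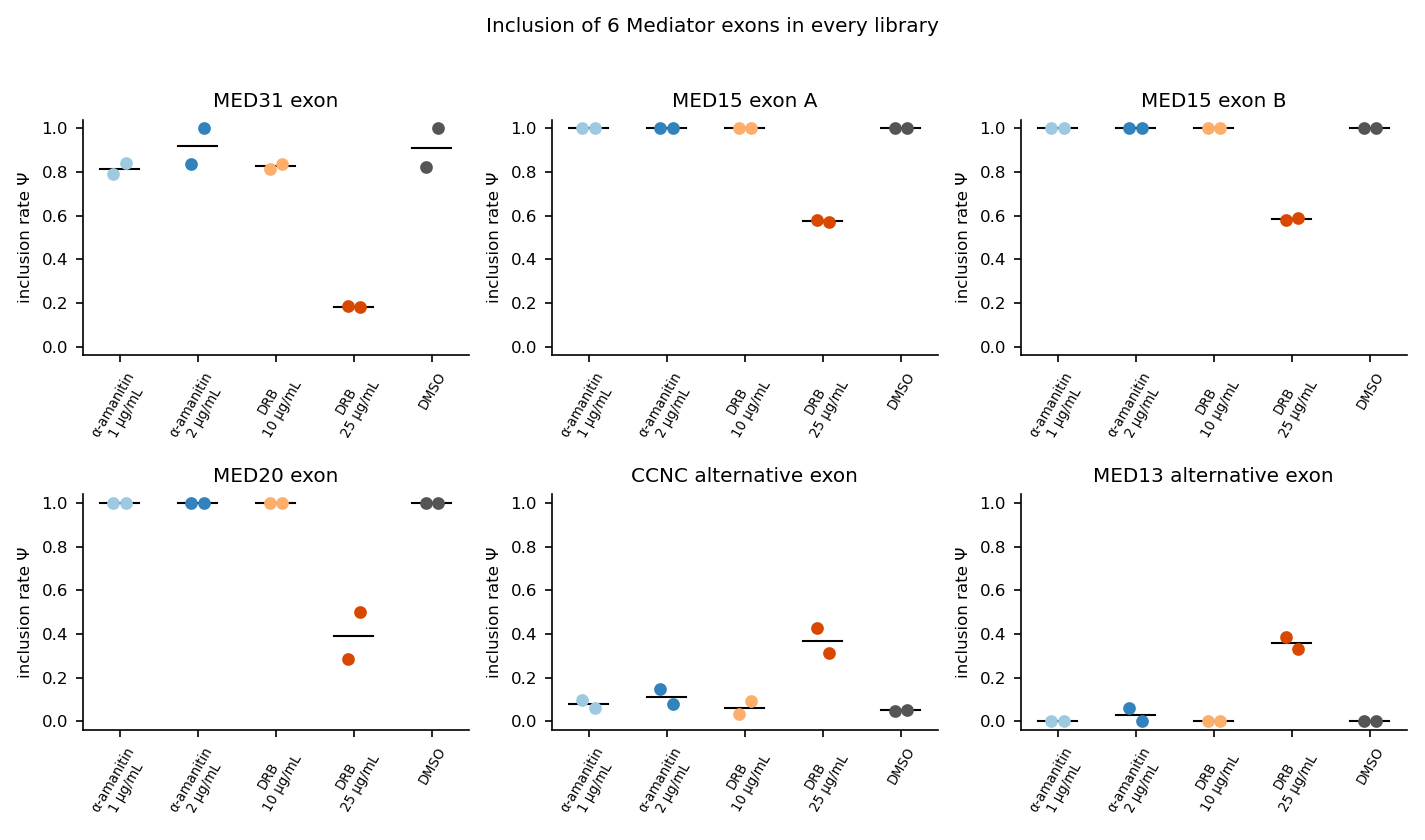
Inclusion rate Ψ of 6 Mediator exons in every library, with each point a library and the line the mean of 2, for both α-amanitin doses, both DRB doses and DMSO. The MED31 exon, both MED15 exons and the MED20 exon lie lowest at 25 µg/mL DRB, where MED31 averages 0.184, and the alternative exons of CCNC and MED13 lie highest there, at 0.370 and 0.359.

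Junctions that the annotation does not hold were also counted. Over all members, such unannotated introns took 3.83% and 1.89% of the split reads at 25 µg/mL DRB, against 0.0% and 0.255% in DMSO, and over all genes 1.32% and 0.948%, against 0.174% and 0.180%. As a share of the listed introns they came to 8.14% and 7.38% of the members' at 25 µg/mL DRB, against 0.0% and 1.87% in DMSO, and over all genes to 10.8% and 10.1%, against 1.44% and 1.59%, so that the members lie above all genes by reads and below them by introns. By reads, MED15 weighs much in this: 2 of its junctions held 13 and 10 of the members' 54 such reads in one library. In the other library at 25 µg/mL DRB they held 5 and 11 of 51. Of the 21 unannotated member introns, in 12 genes, 10 were listed only at 25 µg/mL DRB, 5 of them in both libraries. That is 47.6%, beside 47.5% of the 12274 unannotated introns of all genes.

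Completeness of splicing could be tested for 2 introns of the members, both in MED29, which lies between head and tail. Both passed an adjusted p of 0.05 on the less spliced side at 25 µg/mL DRB, but they reached the filter of 10 unspliced reads only through the libraries at that dose, so their values are a description. Of all introns tested, 14.1% passed, with 5.0% higher and 9.12% lower. The first MED29 intron, between chr19:39882278 and chr19:39883104, had 16 split reads with 4 and 4 unspliced at its ends in one library and 18 with 13 and 5 in the other, which is 20% and 33.3% unspliced, against 0 unspliced reads in both DMSO libraries. The next MED29 intron, between chr19:39883162 and chr19:39884193, had 8 split reads with 7 and 5 unspliced at its ends and 12 with 0 and 8. That is 42.9% and 25.0% unspliced, against 0 in DMSO. In the second of these libraries the unspliced reads lay at 1 end of the intron only. No unspliced reads of either were listed at 10 µg/mL DRB or in the α-amanitin libraries. The exon of 59 nucleotides between both introns is shown with its splice sites, as above.
MED29 exon, chr19:39883084-39883182, strand +: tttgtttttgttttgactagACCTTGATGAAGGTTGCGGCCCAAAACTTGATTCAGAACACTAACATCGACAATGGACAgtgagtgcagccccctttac
It was also passed over at 25 µg/mL DRB: the junction from one outer end to the other had 5 and 4 split reads there in MED29 and was unlisted in the other libraries. At 10 µg/mL DRB 0 of the 2 introns passed, with 0 at an unadjusted p under 0.05 and 0 by limma on log odds, against 0.0227% of all introns. With no unspliced reads listed there or in DMSO, these introns could not pass, so that result is no finding. No member intron met the filter for α-amanitin, where 0.0% of all introns passed at 1 µg/mL and 0.142% at 2 µg/mL, with 0.095% higher and 0.0475% lower. As with the exons, leaving out any 1 library left 0 calls.

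Along the genes, the members kept different shapes. In MED15 the first 5 of the 17 canonical introns summed to 41.1 and 41.5 CPM at 25 µg/mL DRB, against 15.3 and 18.1 in DMSO. The last 5 summed to 108 and 80.2 at 25 µg/mL DRB, against 22.6 and 17.7 in DMSO. The ratio of last to first introns of MED15 was thus 1.39 and 0.95 on the log2 scale at 25 µg/mL DRB. It was 0.56 and −0.03 in DMSO and 0.38 and 0.65 at 10 µg/mL DRB. By these sums the difference from DMSO was larger towards the end of the gene. The first 5 introns include those that flank exons A and B, and the junction that skips both exons is not part of the sum. The share of this skipping in the ratio was not tested. In CCNC, with 3 introns at each end, the ratio was 1.34 and 0.79 at 25 µg/mL DRB, against 1.17 and 1.02 in DMSO, and the groups overlap. In the other called members with enough introns, at least 1 library at 25 µg/mL DRB had no listed intron at one of the ends. For MED14 the first and the last 10 introns were compared at 10 µg/mL DRB. The first 10 summed to 31.5 and 30.9 at that dose, against 12.3 and 18.1 in DMSO, and the last 10 to 21.3 and 28.4, against 13.2 and 2.84 in DMSO. In MED12 the first 14 introns summed to 15.0 and 26.8 at 10 µg/mL DRB, against 9.14 and 5.08 in DMSO, and the last 14 to 24.7 and 15.1, against 8.91 and 0 in DMSO. In both genes each end lay above both DMSO libraries at that dose.

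**Figure D5:**
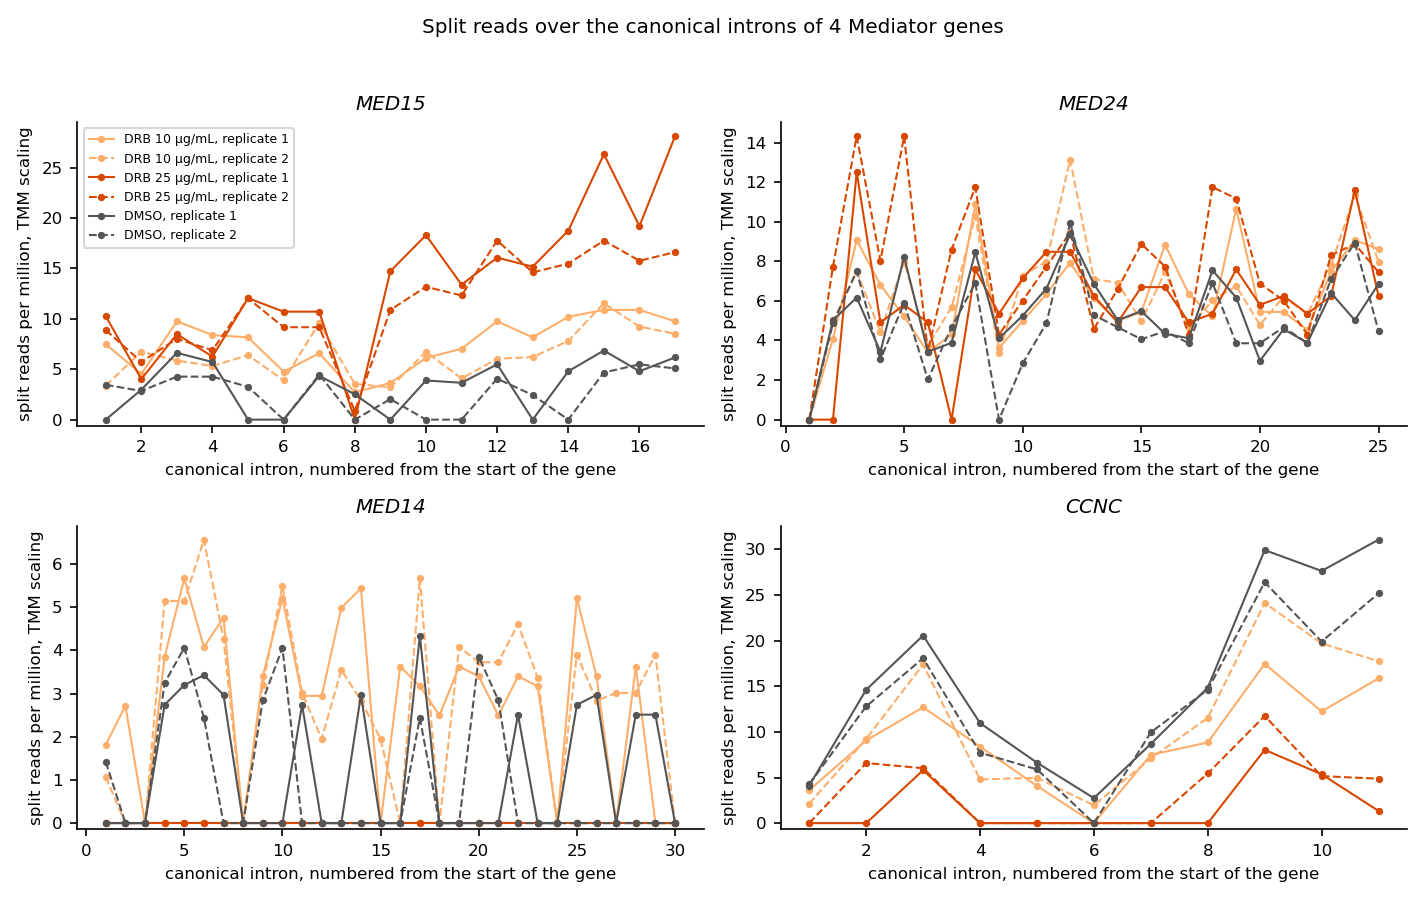
Split reads in CPM, TMM scaling, over the canonical introns of MED15, MED24, MED14 and CCNC, numbered from the start of the gene, in each library at 10 and 25 µg/mL DRB and in DMSO, with unlisted introns drawn at 0. At 25 µg/mL DRB the MED15 line lies above DMSO from intron 9 on, MED24 overlaps DMSO at many introns, MED14 is at 0 throughout and CCNC lies below DMSO.

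Across the members, the log2 fold change went with gene length in different ways. Spearman's rho was 0.59 over 30 members at 1 µg/mL α-amanitin, 0.33 at 2 µg/mL, 0.36 over 31 members at 10 µg/mL DRB and −0.28 at 25 µg/mL DRB. Over all genes it was 0.03, −0.08, 0.01 and −0.21 in the same order. The points share their libraries, and the DMSO libraries serve all 4 comparisons, so these values describe the members and carry no test.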

How the data were processed

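Poly(A) RNA libraries of A549 cells (NEBNext Ultra II Directional kit, Illumina NextSeq) were mapped by the authors to GRCh37 with STAR, version 2.7.3a per the submitters' processing notes, and the IPSA pipeline counted split reads. The deposited values are counts made by the authors: split reads per intron, unspliced reads at its ends, and inclusion, exclusion and retention reads per exon, with ratios computed from them. The deposited inclusion ratio Ψ is inc/(inc + 2 × exc), which held within 0.005 in all 1993591 values checked. Introns are listed from 11 reads upwards, counting split reads, unspliced reads and further reads at their splice sites. Exons are listed from 11 upwards in the sum of inclusion reads, 2 × exclusion reads and retention reads. Counts are thus truncated. The depth was 2899344 to 6498515 split reads per library. Introns were given to genes by GENCODE 44 lifted to GRCh37, and the letters of all sequences were read from the GRCh37 genome.

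Split reads were summed per gene. Genes that reached 10 reads in 2 libraries, and 15 summed over a fit, were fitted with limma 3.58.1 (voom, TMM factors computed in R 4.3.3), separately for the 6 α-amanitin and DMSO and the 6 DRB and DMSO libraries, and p-values were adjusted by Benjamini-Hochberg over all features with a threshold of 0.05. Exons and introns were fitted with a quasi-binomial model with limma's moderated spread where the denominator reached 10 in every library and both outcomes 10 in all. Scripts ran in Python 3.11.15 with numpy 2.4.6, pandas 2.3.3 and matplotlib 3.10.9, and each fit was tested on simulated data. Other scalings, filters, tools, fits and each left-out library were tried. The use of inclusion reads and the case in which unlisted exons hold 10 reads were chosen after seeing the data.

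The members and lists were chosen with earlier results of these data known. Members were described by name if they passed 0.05 in any comparison with DMSO, had one of the 3 highest or 3 lowest fold changes at a mean of 50 or more reads in a group, or belong to the CDK8 kinase module. Exons were named past 0.05 or, 1 per gene, among the 3 with the largest difference at an unadjusted p under 0.05. The introns were divided into 3 equal parts along the gene, and the first and last part compared, in called members with at least 6 listed introns. Columns of 0 samples were left unused. Results that need 2 sites withheld from this report are not reported here.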

Additional observations from a re-analysis of the deposited data

Results flagged for a closer look

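In 9 Mediator genes both libraries at 10 µg/mL DRB lay on one side of DMSO and both at 25 µg/mL on the other, and the difference between the doses passed an adjusted p of 0.05 in limma voom. All 9 were above both DMSO libraries at 10 µg/mL and below both at 25 µg/mL, which is 29% of the 31 members tested, beside 13.7% of all 9530 genes. The opposite order was seen in 0 members and 7.84% of all genes. Only MED14 and MED12 of the 9 were called higher than DMSO at 10 µg/mL, and for the other 7 the higher position at that dose did not pass the test. The log2 difference of 25 against 10 µg/mL DRB was −8.95 for MED14, −8.68 for MED12, −8.67 for MED16, −8.64 for MED1, −6.11 for MED13L, −5.63 for MED22, −5.03 for MED4, −4.28 for MED23 and −1.73 for MED13. Of these, MED12, MED14, MED16, MED1 and MED22 were listed at 0 in both libraries at 25 µg/mL, so their fitted values are no bounds. At the listing minimum the difference held for MED14, MED16, MED1, MED13, MED13L and MED4, at least 1.38-, 1.96-, 1.68-, 1.27-, 1.17- and 2.07-fold lower at 25 µg/mL, and MED12, MED22 and MED23 were undecided. Both libraries at 25 µg/mL DRB also list the fewest introns of all 10, and the part of this in the differences was not tested.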

How the results depend on the processing

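Of the counts of called members, exons and introns under the alternatives tried, 106 stayed within 1.5 times and 36 moved. The 106 include cases in which the main fit and the alternative both called 0, also where no member could be tested. Among single members that were not called, MED24 at 25 µg/mL DRB turned to −0.05 by total split reads, and MED31 changed side over introns listed in every library. At 25 µg/mL DRB the count of 21 members was 7 over introns listed in every library (10 members tested), 11 where unlisted exons hold 10 reads, and 4 to 18 when 1 library was left out, with 4 without replicate 2 and 9 without replicate 1 of 25 µg/mL DRB and 17 and 18 without a DMSO library. At 10 µg/mL DRB the count of 3 was 5 by total split reads, 0 with a minimum of 50 reads, 5 with all 10 libraries in 1 fit, 6 with DMSO and this dose alone, and 0 in every left-out case. At 2 µg/mL α-amanitin the count of 1 was 2 by total split reads, 3 with a minimum of 50 reads, 4 over introns listed in every library, 2 with all 10 libraries, 0 with DMSO and this dose alone, and 0 to 2 with 1 library left out. Of the 17 exons, 3 were called with a minimum sum of 30, 0 without a filter on low counts, and 0 in every left-out case. Of the 2 introns, 0 were called with a minimum sum of 30, without a filter or in any left-out case. The cause of these moves was not tested.

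Same-numbered libraries share only a number in the labels. Their deviations correlated by 0.33, 0.40 and 0.55 among α-amanitin and DMSO and by 0.23, 0.05 and 0.14 among DRB and DMSO, over 4856 genes. With the replicate number as a block, 18 members were called at 25 µg/mL DRB (55.3% of all genes) and 2 at 10 µg/mL DRB (10.3%). At 2 µg/mL α-amanitin 4 members were called (22.3% of all genes) and at 1 µg/mL 0 (0.134%). Between the DRB doses 19 members were called (56.3% of all genes) and between the α-amanitin doses 0 (0% of all genes). With the block, 0 exons and 0 introns were called. The listing minimum of 11 reads limits all statements about unlisted genes.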
